A study of Mus musculus with 24 samples.

Results

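Bmx-deficient left ventricle was compared with wild type left ventricle in C57Bl/6J mice after angiotensin II (AngII), across every probe of an Illumina expression array that gave a detectable signal. A probe entered when its detection p-value was below 0.05 on at least 3 of the 12 C57Bl/6J arrays, which held for 20319 of 45281 probes. The comparison used 3 arrays labelled KO AngII and 3 labelled WT AngII, 6 of the 24 arrays of the study. Bmx is a cytoplasmic tyrosine kinase of the TEC family, known for its expression in arterial endothelium and endocardium and for acting downstream of growth factor and cytokine receptors. Angiotensin II is the effector peptide of the renin-angiotensin system. It raises blood pressure, and infused into mice it is known to bring about myocyte hypertrophy, natriuretic peptide expression and deposition of collagen in the ventricle.

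All mice were male, and RNA of 1 left ventricle sample went to each array. The groups were Bmx-deficient C57Bl/6J mice infused with AngII for 2 weeks (KO AngII), wild type C57Bl/6J mice infused with AngII for the same time (WT AngII), and the salt-infused groups of the same genotypes (KO Sham and WT Sham), with 3 arrays each. AngII-treated Balb/C mice, Bmx-deficient (TK) or wild type, gave another 3 arrays a group and were used as an independent set. The labels give no age, no origin of the wild type mice and no description of the targeted alleles, and do not say what TK stands for or whether each array had its own mouse. The p-values therefore cover only the spread among these arrays, which may be technical. Signals are normalized log2 values. A probe was called when its adjusted p was below 0.05, in limma fits with Benjamini-Hochberg adjustment over all probes of the comparison, and every adjusted p given here is of that kind. A gene with several probes is given by its called probe or, with none called, by its brightest, unless another is named. Differences are deficient minus wild type on the log2 scale, with their standard error (SE).

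The 6 AngII arrays were of like depth, with median signals between 131.4 and 139.8 and between 17934 and 19262 detected probes. Bmx itself was measured by 4 probes, of which 1 passed the filter. That probe read 6.62, 6.12 and 6.02 on the KO AngII arrays, against 6.70, 6.62 and 6.27 on the WT AngII arrays. The groups overlapped, and the difference of -0.28 ± 0.16 did not pass the test (adjusted p = 0.648). Of the other probes, 2 were detected on none of these arrays, and the last on 0 of 3 KO AngII and 1 of 3 WT AngII arrays. Whether the probes lie in the deleted part of the gene is not given in the sources used here, so the signals do not check the labels. Ventricular myocyte markers summed to 343200 to 352600 units of linear normalized signal on the KO AngII arrays and 345600 to 356400 on the WT AngII arrays.

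The WT AngII arrays stood apart from all others of the strain in one set of genes, and this bears on most results below. On 4.95% of the tested probes, all 3 WT AngII arrays lay above or all lay below the other 9 C57Bl/6J arrays. No like share is given for the other groups, so whether 4.95% is high for a group was not tested. Among the probes called between the genotypes under AngII this held for 21 of 22. Called probes already have WT AngII apart from KO AngII, so this count partly restates the call, and 4.95% is not a like base for it. The genes include some that are known, as background, to differ between substrains of C57BL/6 mice by deletion or by copy number. Genotype under AngII and whatever else sets the WT AngII arrays apart cannot be told apart with these groups. The same holds for AngII against sham in WT.

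The genotypes differed in few transcripts under AngII. Of 20319 probes, 22 were called (0.108%), 5 higher in KO AngII (0.0246%) and 17 lower (0.0837%), and 1845 (9.08%) had an unadjusted p below 0.05. The ranges of the groups did not overlap in any of the 22, against 14.5% of all probes with no overlap. The 22 probes stand for 16 named genes, with 2 probes for Uck2, and 5 probes have no listed gene. A difference of 2-fold or more was seen in 14 of them and in 39 probes of all (0.192%).

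**Figure D1:**
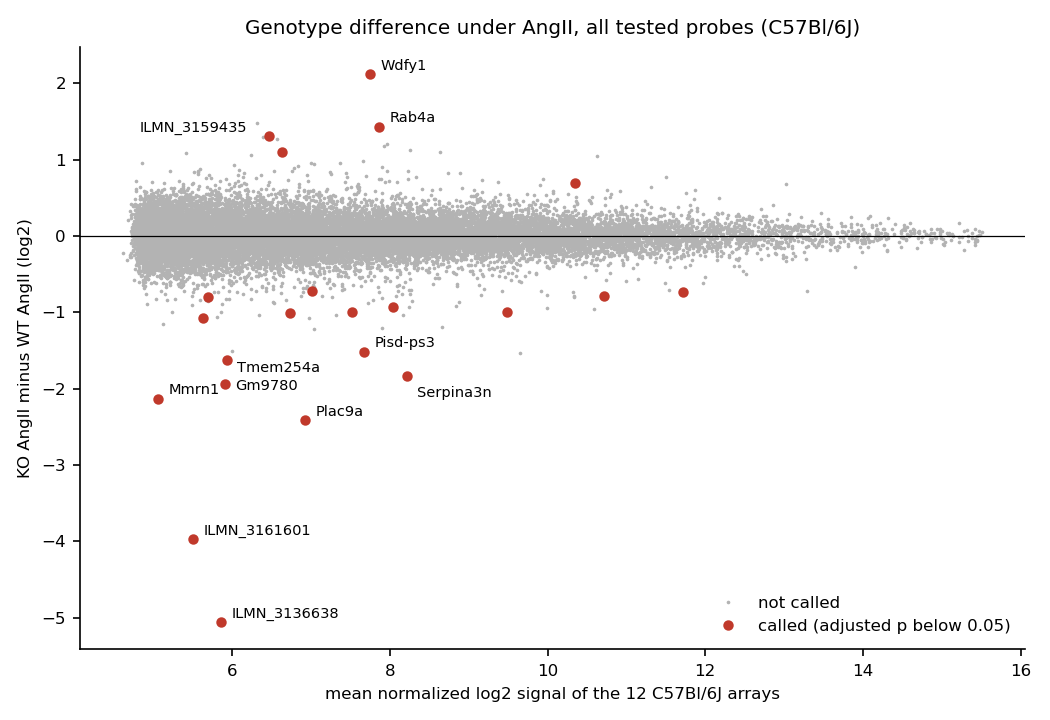
Each point is 1 of 20319 probes, with the mean normalized log2 signal over 12 C57Bl/6J arrays on the x axis and the KO AngII minus WT AngII difference on the y axis. The 22 called probes are red, and those beyond 1.2 log2 units are named, from Wdfy1 at 2.12 to the unnamed probe ILMN_3136638 at -5.05.

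The count depended on single arrays. It was 8 without WT AngII replicate 1, 6 without WT AngII replicate 2, 9 without KO AngII replicate 1, 12 without KO AngII replicate 2 and 14 without KO AngII replicate 3. When arrays were scaled to equal medians and not by quantiles it was 16, of which 7 were higher and 9 lower. A core of 9 probes was called under every setting and without every array with which it could be tested: those of Wdfy1, Rab4a, Serpina3n, Plac9a, Gm9780, Tmem254a and Mmrn1 and the unnamed probes ILMN_3136638 and ILMN_3161601. Of these, Mmrn1 and the unnamed probes were detected on the WT AngII arrays alone, and could not be tested once 1 of those arrays was removed. They passed the filter only through the group in which they were high. Their place in the core rests on 3 left-out AngII arrays, against 6 for the other core probes.

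**Figure D2:**
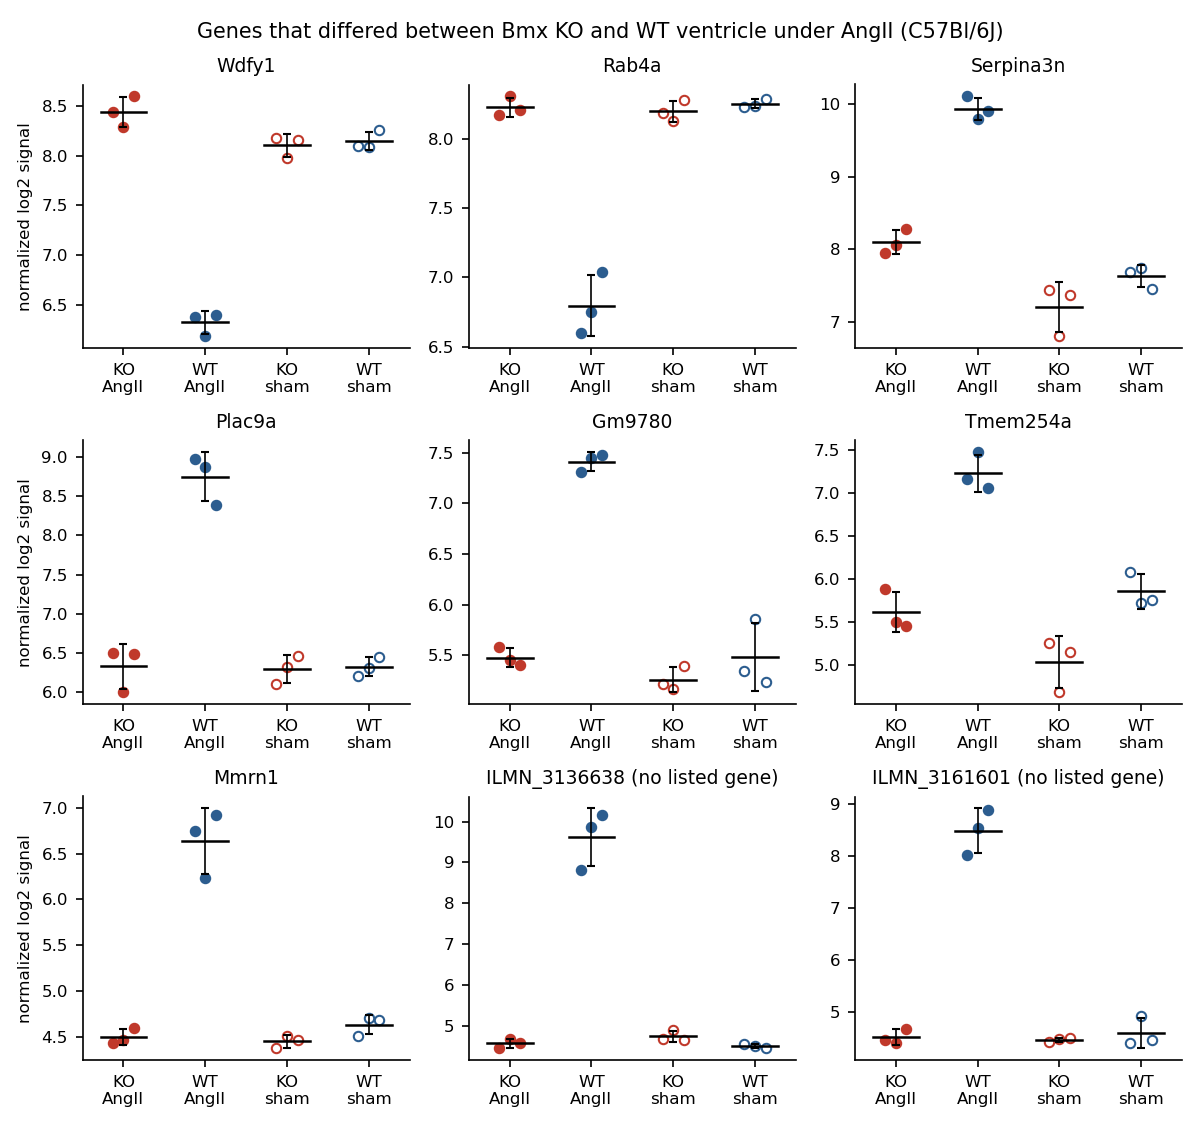
Normalized log2 signals of the 9 core probes on each array, with KO AngII, WT AngII, KO sham and WT sham from left to right, filled points for AngII and open points for sham, and bars for the mean and SD of 3 arrays. In each panel the WT AngII arrays lie apart from the other 9.

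A cluster of small genes on chromosome 14 held 3 of the called genes. Plac9a encodes a small secreted protein first known from placenta, Gm9780 is a predicted copy of it, and Tmem254a encodes a membrane protein. The gene table of assembly GRCm38.p6 lists further copies of each, Plac9b, Tmem254b and Tmem254c, in the same stretch of the chromosome. The promoter windows around the start, as given by RefSeq, are shown because those of the copies share long stretches. Signals of such copies may not be separable on an array. No probe sequences were compared, so the windows do not show whether they are. Capitals mark the longest unbroken stretch that the windows of all 3 copies of a family share, 222 bases in the Plac9 family and 284 bases in the Tmem254 family. The windows do not all start at the same place in this stretch. Bases in lower case were not aligned between the copies and are not shown to differ. All windows lie on the minus strand of GRCm38.p6.
Plac9a, chr14:25902844-25903143: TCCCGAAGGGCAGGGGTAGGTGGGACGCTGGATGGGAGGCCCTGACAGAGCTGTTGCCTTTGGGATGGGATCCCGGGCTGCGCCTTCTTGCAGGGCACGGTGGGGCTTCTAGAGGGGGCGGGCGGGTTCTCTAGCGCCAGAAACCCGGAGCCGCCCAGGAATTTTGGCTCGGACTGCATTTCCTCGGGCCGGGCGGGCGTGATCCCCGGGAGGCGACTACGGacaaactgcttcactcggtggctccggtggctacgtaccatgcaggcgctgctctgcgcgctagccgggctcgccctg
Gm9780, chr14:26042688-26042987: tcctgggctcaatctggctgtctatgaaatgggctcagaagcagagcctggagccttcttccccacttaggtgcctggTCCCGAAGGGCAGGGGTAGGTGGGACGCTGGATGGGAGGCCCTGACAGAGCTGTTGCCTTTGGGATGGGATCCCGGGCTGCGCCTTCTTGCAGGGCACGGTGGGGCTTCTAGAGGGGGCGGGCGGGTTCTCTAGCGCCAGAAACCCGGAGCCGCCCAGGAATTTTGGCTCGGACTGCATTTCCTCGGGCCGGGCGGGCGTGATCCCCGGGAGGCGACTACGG
Tmem254a, chr14:25927623-25927922: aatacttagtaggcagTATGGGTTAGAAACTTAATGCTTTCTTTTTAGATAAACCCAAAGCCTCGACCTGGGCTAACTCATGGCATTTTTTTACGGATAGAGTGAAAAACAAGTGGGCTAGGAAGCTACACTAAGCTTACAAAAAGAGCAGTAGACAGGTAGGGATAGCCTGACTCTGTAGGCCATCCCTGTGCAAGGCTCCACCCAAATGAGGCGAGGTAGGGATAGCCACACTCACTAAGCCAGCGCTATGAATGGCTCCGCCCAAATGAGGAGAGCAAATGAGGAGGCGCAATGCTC
The windows of Gm9780 and Plac9b were identical over 300 bases, and so were those of Tmem254a and Tmem254c.

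All 3 genes were lower in KO AngII ventricle. Plac9a read 6.50, 6.00 and 6.49 on the KO AngII arrays, against 8.98, 8.87 and 8.39 on the WT AngII arrays, and fell by 2.42 ± 0.18 (adjusted p = 1.93e-05), a 5.33-fold lower signal. The sham arrays were at the KO AngII level, with means of 6.29 ± 0.18 in KO Sham and 6.32 ± 0.12 in WT Sham (SD, n = 3 each). Gm9780 read 5.58, 5.45 and 5.40 in KO AngII, against 7.31, 7.45 and 7.48 in WT AngII, and fell by 1.94 ± 0.15 (adjusted p = 3.65e-05).

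Tmem254a read 5.88, 5.50 and 5.45 in KO AngII, against 7.17, 7.47 and 7.05 in WT AngII, and fell by 1.62 ± 0.18 (adjusted p = 0.00143). Its sham means were 5.03 ± 0.31 in KO Sham and 5.85 ± 0.20 in WT Sham (SD, n = 3 each), a difference of -0.82 that did not pass the test (adjusted p = 0.536), beside -0.22 for Gm9780 and -0.03 for Plac9a. Among the 10 genes on either side of Plac9a in the gene table, 9 were tested and only these copies, Gm9780 and Tmem254a, were called. Anxa11, the gene next to Plac9a on the other side, gave a difference of 0.19 on its brightest probe (adjusted p = 0.641). For the other called genes with a place in the table, 0 of their neighbours were called.

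The genes that were higher in KO AngII were led by a pair of endosomal genes. Wdfy1 encodes a FYVE-domain protein that binds phosphatidylinositol 3-phosphate on early endosomes and is known as an adaptor in Toll-like receptor signalling. It read 8.44, 8.29 and 8.59 on the KO AngII arrays, against 6.38, 6.19 and 6.41 on the WT AngII arrays. Both sham groups were close to the KO AngII level (8.11 ± 0.12 in KO Sham and 8.15 ± 0.09 in WT Sham, SD, n = 3 each). Wdfy1 rose by 2.12 ± 0.12 (adjusted p = 1.32e-06), a 4.33-fold higher signal. A dim second Wdfy1 probe was detected on 3 of 3 KO AngII and 0 of 3 WT AngII arrays, and its difference of 0.54 ± 0.13 did not pass the test (adjusted p = 0.226).

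Rab4a encodes the small GTPase that sends receptors back from early endosomes to the cell surface. It read 8.17, 8.31 and 8.21 in KO AngII, against 6.60, 6.75 and 7.04 in WT AngII, with all 6 sham arrays between 8.13 and 8.29. It rose by 1.43 ± 0.12 (adjusted p = 7.48e-05), a 2.70-fold higher signal. Among 18 tested endosome and Rab genes, a list that was written with these results known, Wdfy1 and Rab4a were the 2 that rose, 0 fell, and the median difference was 0.11. That median stood beside 0.00 over all 10816 genes, measured by the brightest probe of each, of which 0.0185% rose and 0.111% fell. The paralogue Rab4b differed by -0.22 and the recycling GTPase Rab11a by 0.40, and neither passed the test.

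Serpina3n was lower in KO AngII and higher with AngII in both genotypes. It encodes a secreted serine protease inhibitor of the acute-phase type, known to inhibit granzyme B and to be induced through STAT3. The signals were 7.95, 8.06 and 8.29 in KO AngII, against 10.10, 9.80 and 9.90 in WT AngII, with means of 7.20 ± 0.35 in KO Sham and 7.63 ± 0.15 in WT Sham (SD, n = 3 each). Serpina3n fell by 1.83 ± 0.17 (adjusted p = 1.80e-04), a 3.57-fold lower signal. AngII against sham gave a difference of 0.90 in KO (adjusted p = 0.0196) and 2.31 in WT (adjusted p = 1.86e-05). The test of the difference between these responses gave -1.41 ± 0.24 and missed the threshold (adjusted p = 0.0997).

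Other genes of the IL-6 and STAT3 pathway did not follow it as a group. Of 21 tested genes, Serpina3n fell, 0 rose, 4 had an unadjusted p below 0.05 toward lower signals and 1 toward higher (8.94% of all genes had one), and the median difference was -0.07, or -0.13 to 0.005 without single arrays. The kinase gene Pim3, a STAT3 target that phosphorylates metabolic and survival proteins, was just outside the threshold in the other direction (1.04 ± 0.18, adjusted p = 0.0649). Stat3 itself differed by -0.31 ± 0.12 (adjusted p = 0.499). Within the TEC kinase list, which holds Bmx, its relatives and known partners, 0 of 14 tested genes were called, and Tec differed by 0.40 ± 0.17 (adjusted p = 0.515).

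Mmrn1 was detected on 3 of 3 WT AngII arrays and on none of the other 9 arrays of the strain. It encodes multimerin 1, a protein stored in platelets and endothelial cells. Its signals were 4.44, 4.47 and 4.60 in KO AngII, where the probe was not above background, against 6.74, 6.23 and 6.92 in WT AngII. The difference was -2.13 ± 0.155 (adjusted p = 1.93e-05). Set against the lowest detected signal on each KO AngII array, Mmrn1 was at least 3.09-fold lower, a bound that was not itself tested. A second Mmrn1 probe was detected on 0 arrays.

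The largest differences belonged to probes without a listed gene. ILMN_3136638 read 4.46, 4.66 and 4.59 in KO AngII, not above background, against 8.82, 9.87 and 10.16 in WT AngII. The difference was -5.05 ± 0.25 (adjusted p = 3.36e-07), and the untested bound was at least 24.5-fold lower. ILMN_3161601 read 4.46, 4.39 and 4.67 in KO AngII, also not above background, against 8.02, 8.53 and 8.88 in WT AngII. Its difference was -3.97 ± 0.196 (adjusted p = 3.36e-07), with an untested bound of at least 11.1-fold lower. Both probes were undetected on all 6 sham arrays. In Balb/C ILMN_3136638 was bright in either genotype, with 8.10, 8.76 and 9.42 in TK AngII, against 9.09, 7.59 and 8.21 in WT AngII. ILMN_3161601 read 6.44, 6.92 and 7.63 in TK AngII, against 7.17, 5.90 and 6.68 in WT AngII there. The TK and WT arrays overlapped on both probes.

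A further unnamed probe, ILMN_1237218, was higher. It read 7.10, 7.15 and 6.56 in KO AngII, against 5.87, 5.79 and 5.85 in WT AngII, and rose by 1.10 ± 0.16 (adjusted p = 0.0157), a call lost without 4 of the 6 AngII arrays in turn (up to 0.118) and with the 6 AngII arrays alone (0.143).

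Mmrn1 belongs to a short list of genes known to be deleted or copied in some C57BL/6 substrains. Mmrn1 lies in a segment deleted in one substrain, Nnt carries a deletion in another, and Ide and Fgfbp3 lie in a segment whose copy number varies. Of these 4 genes, Mmrn1 and Ide fell and 0 rose, beside 0.111% and 0.0185% of all genes. The list was chosen with earlier results of these data known, and Mmrn1 passed the filter only through the WT AngII arrays. The count is therefore no test of substrain genes. Nnt, the mitochondrial transhydrogenase gene, read 8.26, 8.67 and 7.92 in KO AngII, against 7.29, 7.32 and 7.69 in WT AngII, with no overlap and a difference of 0.85 ± 0.19 that missed the threshold (adjusted p = 0.184). Fgfbp3, a fibroblast growth factor binding protein gene, read 5.77, 5.68 and 6.15 in KO AngII, against 6.63, 6.57 and 6.70 in WT AngII, also apart, at -0.77 ± 0.18 (adjusted p = 0.227). Ide, the insulin-degrading enzyme gene, read 10.52, 10.63 and 10.31 in KO AngII, against 11.31, 11.27 and 11.27 in WT AngII, and fell by 0.79 ± 0.11 (adjusted p = 0.0157). The other 2 Ide probes, both dimmer, gave -0.86 ± 0.27 and -0.26 ± 0.21 with overlapping arrays and did not pass the test (adjusted p = 0.380 and 0.755). On the probe given for each of the 4 genes, both sham means were nearer to KO AngII than to WT AngII: the KO Sham and WT Sham means were 10.60 and 10.51 for Ide, and 8.50 and 8.70 for Nnt. A dimmer Nnt probe gave 0.57 ± 0.17 (adjusted p = 0.324). There the KO Sham mean (6.145) was nearer to WT AngII (6.006), and the WT Sham mean (6.595) to KO AngII (6.575).

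Uck2 and Ift81 differed between the genotypes in both strains, on mice that shared no array. Uck2 encodes uridine-cytidine kinase, which feeds salvaged pyrimidine nucleosides into nucleotide synthesis. Its called probe with the smaller p read 9.81, 9.46 and 9.71 in KO AngII, against 10.78, 10.77 and 10.42 in WT AngII, and fell by 0.99 ± 0.15 (adjusted p = 0.0255). A second called probe fell by 1.00 ± 0.16 (adjusted p = 0.0402), and the third and brightest gave -0.78 ± 0.17 (adjusted p = 0.138). Uck2 was higher with AngII in both genotypes, by 0.79 in KO (adjusted p = 0.0213) and 1.93 in WT (adjusted p = 2.10e-05) on the first probe. The Balb/C arrays gave 9.10, 9.52 and 9.85 in TK AngII, against 10.13, 11.09 and 10.83 in WT AngII, and fell by 1.19 ± 0.23 (adjusted p = 0.00356).

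Ift81, a subunit of the intraflagellar transport complex that builds cilia, was higher. It read 10.21, 10.24 and 10.32 in KO AngII, against 9.61, 9.42 and 9.67 in WT AngII, and rose by 0.70 ± 0.12 (adjusted p = 0.0437). AngII minus sham gave -0.45 in KO (adjusted p = 0.0508) and -1.30 in WT (adjusted p = 6.06e-05). In Balb/C it read 11.53, 11.24 and 11.05 in TK AngII, against 10.34, 9.29 and 9.93 in WT AngII, and rose by 1.42 ± 0.21 (adjusted p = 4.41e-04). The other 2 Ift81 probes gave 0.44 and 0.33 in C57Bl/6J, neither past the test, and 1.29 and 1.68 in Balb/C, both past it (adjusted p = 6.23e-04 and 6.07e-04).

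The unnamed probe ILMN_1217913 was lower in deficient mice of both strains. It read 7.08, 6.45 and 6.87 in KO AngII, against 7.70, 7.91 and 7.82 in WT AngII, and fell by 1.01 ± 0.17 (adjusted p = 0.0450). In Balb/C it read 5.67, 6.00 and 6.52 in TK AngII, against 7.42, 8.04 and 7.97 in WT AngII, and fell by 1.75 ± 0.20 (adjusted p = 3.72e-05). In C57Bl/6J these calls were fragile. Uck2 lost its call without 5 of the 6 AngII arrays in turn (adjusted p up to 0.163 on the first probe), and Ift81 and ILMN_1217913 without each of the 6 (up to 0.220 and 0.211).

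**Figure D3:**
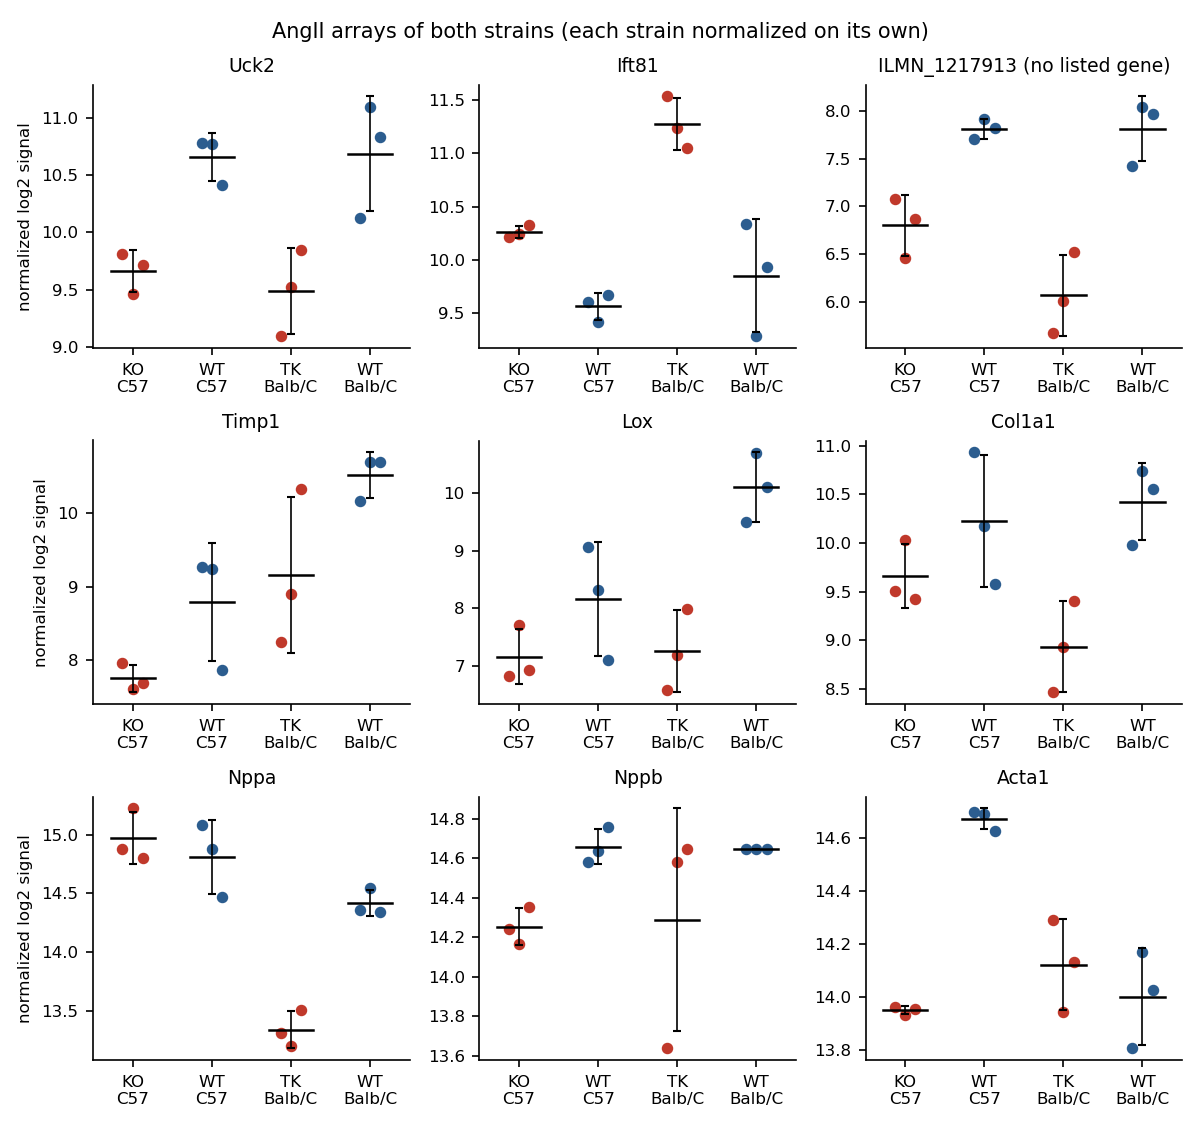
Normalized log2 signals on the AngII arrays, with KO and WT of C57Bl/6J and then TK and WT of Balb/C from left to right, and bars for the mean and SD of 3 arrays. Panels show Uck2, Ift81 and ILMN_1217913 (top), the matrix genes Timp1, Lox and Col1a1 (middle) and Nppa, Nppb and Acta1 (bottom). Uck2 and ILMN_1217913 were lower and Ift81 higher in deficient mice of both strains, and the Nppa arrays overlapped in C57Bl/6J but not in Balb/C.

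The remaining called genes differed by less than 2-fold, apart from Pisd-ps3 and Tmem267. Pisd-ps3, a transcribed pseudogene of the phosphatidylserine decarboxylase gene, read 7.21, 7.69 and 6.74 in KO AngII, against 9.03, 8.69 and 8.46 in WT AngII, and fell by 1.52 ± 0.25 (adjusted p = 0.0398). Tmem267, a membrane protein gene, read 4.82, 5.22 and 5.37 in KO AngII, against 6.05, 6.24 and 6.33 in WT AngII, and fell by 1.08 ± 0.16 (adjusted p = 0.0161). Tmem181a, another membrane protein gene, fell by 0.93 ± 0.13 (adjusted p = 0.00955), and its dimmer probe gave -0.90 ± 0.18 (adjusted p = 0.110).

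Entpd4, a nucleoside diphosphatase of the Golgi and lysosome, read 11.44, 11.52 and 11.49 in KO AngII, against 12.17, 12.23 and 12.23 in WT AngII, and fell by 0.73 ± 0.11 (adjusted p = 0.0182). Ccnk, the cyclin partner of the kinases CDK12 and CDK13 in transcription, fell by 0.80 ± 0.13 (adjusted p = 0.0398), and Smim41 fell by 0.72 ± 0.12 (adjusted p = 0.0494). Of the 16 called genes, 6 have a copy of closely related name in the gene table (Plac9a, Gm9780, Tmem254a, Entpd4, Tmem181a and Pisd-ps3), and their signals may include that copy. Every call of this group and that of Ide was lost without 3 or more of the 6 AngII arrays in turn. Adjusted p then reached 0.239 for Smim41, the highest among them. Processing mattered as well. The Ccnk call was lost under 6 of 11 other settings, the deposited values among them, and the other calls under 1 to 3.

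Few probes separated the genotypes in sham. Between KO Sham and WT Sham 1 probe was called (0.00492%), 6.68% had an unadjusted p below 0.05, and the called one was the unnamed ILMN_3159435, which was 1.79 ± 0.20 higher in KO Sham (adjusted p = 0.0121). Under AngII the same probe read 7.40, 6.77 and 7.44 in KO, against 6.11, 5.86 and 5.71 in WT, and rose by 1.31 ± 0.20 (adjusted p = 0.0233). That call was lost without 5 of the 6 AngII arrays in turn (adjusted p up to 0.132), and with the 6 AngII arrays alone or no filter on dim probes. It was the 1 called probe in which the WT AngII arrays did not lie apart from the other 9, since WT Sham was low as well, with 5.63, 5.53 and 5.32. The difference of the genotype effects, AngII minus sham, was called for 8 of 20319 probes (0.0394%), all of them among the 22, 2 higher (0.00984%) and 6 lower (0.0295%). They were Wdfy1 (2.16 ± 0.17, adjusted p = 7.40e-05), Rab4a (1.49 ± 0.17, 0.00317), Plac9a (-2.39 ± 0.25, 0.00170), Gm9780 (-1.72 ± 0.22, 0.00703), Mmrn1 (-1.95 ± 0.22, 0.00281), Tmem267 (-1.55 ± 0.22, 0.0219), and the unnamed ILMN_3136638 and ILMN_3161601. That count was 4 without WT AngII replicate 1 and 3 without WT AngII replicate 2.

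Against the sham arrays of the same genotype, more of the called probes differed in wild type. AngII against sham was called for 20 of the 22 in WT, 16 higher and 4 lower (6.41% of all probes were called there, 3.22% higher and 3.19% lower), and for 4 of the 22 in KO (3.39% of all probes). The genotype contrast shares arrays with both of these contrasts, so these counts restate it and add no separate evidence. In WT, a response to AngII and whatever else sets the WT AngII arrays apart cannot be told apart. The probe of Smim41 and ILMN_3159435 were the called probes that differed between the genotypes without a called difference from sham in WT.

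**Figure D4:**
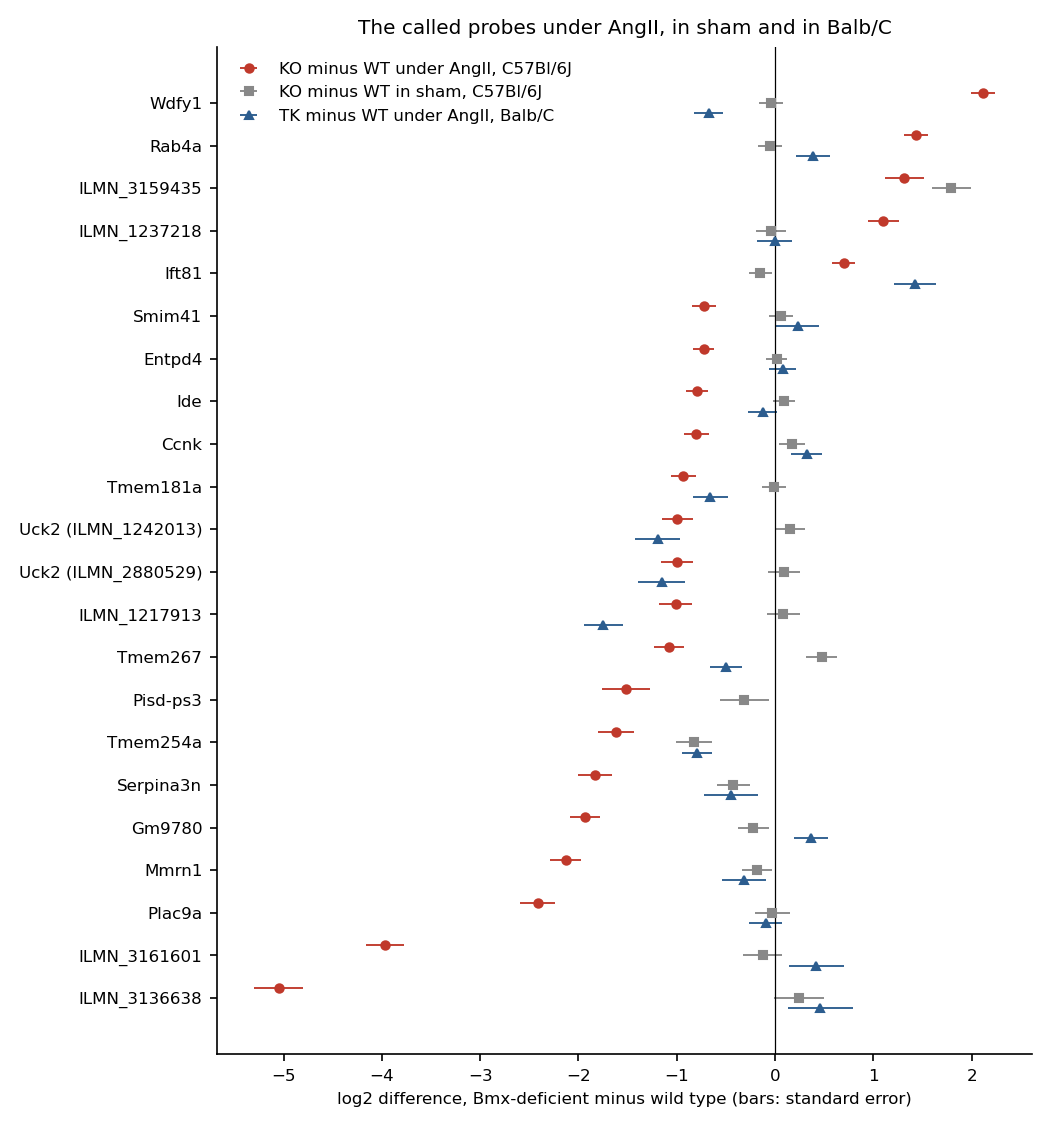
Log2 differences with standard errors for the 22 called probes: KO minus WT under AngII (circles), KO minus WT in sham (squares) and TK minus WT under AngII in Balb/C (triangles). The sham value is 1.79 for ILMN_3159435, -0.82 for Tmem254a, 0.47 for Tmem267 and -0.43 for Serpina3n, and the Balb/C values follow the C57Bl/6J values for few genes.

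In Balb/C the called probes were called in part, and 1 of them in the opposite direction. Of the 22, 20 were measured there, 12 had the same sign and 7 were called, against 8.33% of all Balb/C probes. The 6 in the same direction were those of Uck2 (2 probes), Ift81, Tmem254a, Tmem181a and ILMN_1217913. Wdfy1 read 8.35, 8.68 and 8.81 in TK AngII, against 9.22, 9.33 and 9.31 in WT AngII, and fell by 0.68 ± 0.15 (adjusted p = 0.00770; 0.0603 without TK AngII replicate 1), where it rose in C57Bl/6J. Tmem254a fell by 0.79 ± 0.15 in Balb/C (adjusted p = 0.00326), and Plac9a, its neighbour, differed by -0.10 ± 0.17 (adjusted p = 0.797). The Tmem181a call in Balb/C was lost without 5 of the 6 AngII arrays in turn (adjusted p up to 0.140).

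A joint fit of both strains tested whether the genotype difference itself differed, C57Bl/6J minus Balb/C. It was called for 11 of the 20 probes, against 1.98% of 17967 probes. The 20 were picked by their C57Bl/6J difference, which is part of this contrast. A share above that of all probes was therefore built in and is no separate evidence. The 11 include 8 of the core 9 (all but Tmem254a), and Entpd4, Ccnk and ILMN_1237218. The deficient mice of the strains carry different labels, KO and TK, so strain and allele cannot be told apart in this test.

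The genes by which cardiac hypertrophy is usually read did not pass the test between the genotypes. Of 20 tested stress and hypertrophy genes, 0 were called (0.129% of all genes). An unadjusted p below 0.05 was seen in 8, 6 lower and 2 higher, beside 8.94% of all genes. A negative difference was seen in 12, beside 5334 of all 10816 genes. The median was -0.17 (-0.23 to -0.10 without single arrays). Nppa, the atrial natriuretic peptide gene, read 14.88, 15.23 and 14.80 in KO AngII, against 15.08, 14.88 and 14.47 in WT AngII, with overlap (0.16 ± 0.19, adjusted p = 0.837), and its sign turned to -0.01 without WT AngII replicate 3. In Balb/C Nppa fell by 1.08 in TK AngII (adjusted p = 0.00500).

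Nppb, the B-type natriuretic peptide gene, read 14.24, 14.16 and 14.35 in KO AngII, against 14.58, 14.64 and 14.76 in WT AngII, with no overlap and a difference of -0.40 ± 0.12 (adjusted p = 0.338). Acta1, the skeletal actin gene that the stressed ventricle re-expresses, read 13.96, 13.93 and 13.96 in KO AngII, against 14.70, 14.69 and 14.63 in WT AngII. The Acta1 groups lay well apart, while the sham arrays ranged from 11.61 to 13.24, and with the spread taken over all groups the difference of -0.72 ± 0.32 did not pass (adjusted p = 0.533). Rcan1, a calcineurin-responsive gene, gave -0.71 ± 0.17 (adjusted p = 0.215) with no overlap, and -0.89 in Balb/C, where it was called (adjusted p = 0.0368). Its second probe gave -1.19 ± 0.32 (adjusted p = 0.292), and the dimmest of its probes 0.10 with overlap. The myosin genes Myh7 and Myh6 differed by 0.16 and 0.06 with overlapping arrays.

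Extracellular matrix genes had lower means in KO AngII without passing the test gene by gene. Of 39 tested, 0 were called, 30 had a negative difference and 8 an unadjusted p below 0.05, all 8 lower. Of all 10816 genes, 5334 had a negative difference and 508 an unadjusted p below 0.05 toward lower signals. The matrix median was -0.29 beside 0.00 over all genes. Without single arrays that median ranged from -0.39 (WT AngII replicate 3) to -0.13 (WT AngII replicate 1), and it was -0.18 without KO AngII replicate 3. The list median, relative to the mean of each gene over the strain's arrays, was 0.12, 0.44 and -0.05 on the KO AngII arrays, against 0.79, 0.46 and 0.14 on the WT AngII arrays. The arrays overlapped, with means of 0.17 in KO AngII and 0.46 in WT AngII and a standard error of 0.18 for their difference. Timp1, the metalloproteinase inhibitor gene, read 7.96, 7.60 and 7.69 in KO AngII, against 9.26, 9.24 and 7.86 in WT AngII (-1.04 ± 0.31, adjusted p = 0.332). Without WT AngII replicate 3, Timp1 passed the test (-1.50, adjusted p = 0.0102).

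Lox, the collagen cross-linking oxidase gene, read 6.83, 7.71 and 6.94 in KO AngII, against 9.07, 8.32 and 7.11 in WT AngII (-1.01 ± 0.38, adjusted p = 0.468). Col1a1 differed by -0.57 ± 0.28 (adjusted p = 0.567), and Col8a1 by -0.70 ± 0.24 (adjusted p = 0.436; 0.00968 and called without WT AngII replicate 3). Col3a1 gave 0.17 ± 0.31, and its sign turned to -0.06 without WT AngII replicate 3 and to -0.10 without KO AngII replicate 2. Ccn2, a matricellular growth factor target, gave -0.33 ± 0.19 (adjusted p = 0.633). Postn, the activated fibroblast gene, had 3 probes, none detected on these arrays. WT AngII replicate 3 was the lowest of its group for Timp1, Lox, Col1a1 and Col8a1.

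Part of the matrix genes were higher with AngII in both genotypes. Against sham, 18 of the 39 were called higher in WT (3.25% of all genes) and 8 in KO (1.89%), with medians of 0.76 and 0.65, and 0 passed the test of the difference between the responses. In Balb/C 32 of the 39 were called lower in TK AngII than in WT AngII (6.16% of genes there). A negative difference was seen in 38, beside 4982 of 9877 genes there, and the median was -1.25. Lox fell by 2.85 and Col1a1 by 1.49 there (adjusted p = 2.54e-05 and 3.51e-04). Whether the lists differ between the strains was not tested as a whole. Of the named matrix genes, the strain difference was called for a second Col3a1 probe (2.01, adjusted p = 0.00103, at most 0.00657 without single arrays), while the brighter one missed the threshold (1.48, adjusted p = 0.0817). It was also called for 2 Col8a1 probes. The second gave 1.60 (adjusted p = 0.0170), lost without 3 of the 12 AngII arrays in turn (up to 0.0777), and the first 1.43 (adjusted p = 0.0396), a call lost without 8 of the 12 AngII arrays in turn, WT AngII replicate 3 and each KO AngII array of C57Bl/6J among them (adjusted p up to 0.142).

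Fibroblast markers also had lower means. Of 19 tested, 0 were called and 15 had a negative difference, beside 5334 of all 10816 genes. The median was -0.22 (-0.27 to -0.12 without single arrays, the last without WT AngII replicate 1). The defining marker Pdgfra differed by 0.19, while Pi16 gave -0.59 ± 0.16 (adjusted p = 0.298; 0.0412 and called without WT AngII replicate 3). The summed linear signal of the list ranged from 27920 to 33980 in KO AngII and from 31170 to 39890 in WT AngII, which overlap. In RNA of whole ventricle, fewer cells of a type and less RNA per cell cannot be told apart. The part of fibroblast content in the matrix differences was not tested.

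**Figure D5:**
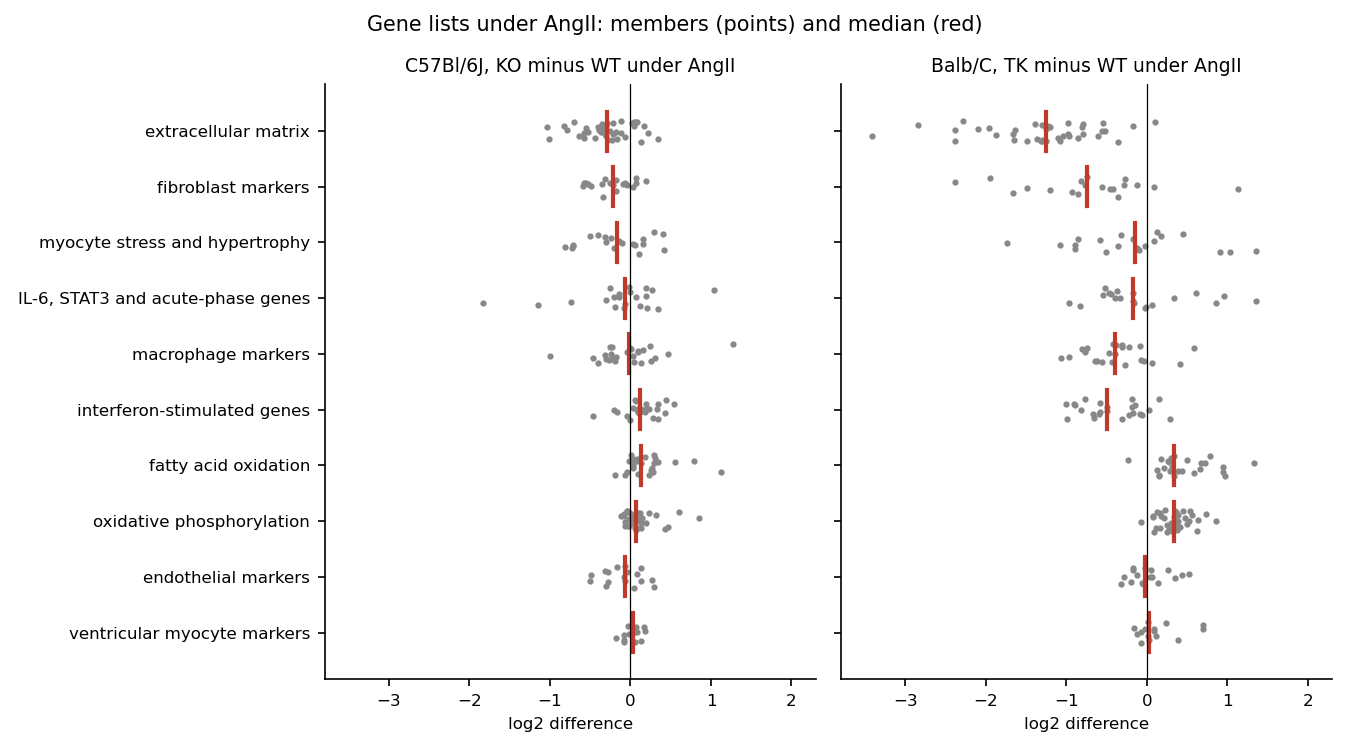
Differences under AngII for the tested members of 10 gene lists (points) with their median (red), KO minus WT in C57Bl/6J at the left and TK minus WT in Balb/C at the right. The matrix median is -0.29 in C57Bl/6J and -1.25 in Balb/C.

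Genes of energy metabolism lay slightly on the other side. Of all 10816 genes, 5482 had a positive difference, which is the base for the counts of this paragraph. Fatty acid oxidation genes had a median of 0.13 (0.07 without WT AngII replicate 1 and 0.08 without KO AngII replicate 3), with 21 of 25 positive and 0 called, and oxidative phosphorylation genes a median of 0.07, with 27 of 38 positive and 0 called. Hadha, the trifunctional protein subunit of mitochondrial beta-oxidation, read 8.40, 8.26 and 8.50 in KO AngII, against 7.28, 7.63 and 6.90 in WT AngII, with no overlap at 1.12 ± 0.22 (adjusted p = 0.113). Interferon-stimulated genes had a median of 0.11 (0.09 to 0.22 without single arrays), with 21 of 26 positive and 0 called, and H2-K1 of the MHC class I pathway gave 0.54 ± 0.15 (adjusted p = 0.298).

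Markers of other cells gave no calls. Macrophage markers had a median of -0.02 over 26 genes (-0.14 to 0.03 without single arrays), with Retnla at 1.27 ± 0.35 and Ccl8 at -1.001 ± 0.24, neither past the test (adjusted p = 0.298 and 0.212). Retnla passed it without WT AngII replicate 3 (1.79, adjusted p = 0.00968). Their summed signal ranged from 11750 to 13060 in KO AngII and from 12810 to 15730 in WT AngII. Endothelial markers, of the cells in which Bmx is best known, had a median of -0.07 over 17 genes, with Sox18 at -0.50 ± 0.13 (adjusted p = 0.275), and arterial and endocardial markers a median of -0.07 over 14 (-0.10 to 0.006 without single arrays). The median of the endothelial list turned to 0.03 and that of the arterial list to 0.02 with scaling to a common median. Among 13 tested genes around Bmx on the X chromosome 0 were called, and Vegfd, a lymphangiogenic growth factor gene, read 6.05, 5.69 and 6.51 in KO AngII, against 7.04, 7.20 and 7.12 in WT AngII (-1.03 ± 0.27, adjusted p = 0.275). Its sham means were 5.44 ± 0.61 in KO and 6.72 ± 0.31 in WT (SD, n = 3 each), -1.28 apart (adjusted p = 0.536).

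At the edge of the threshold, Ift81, ILMN_1217913 and Smim41 had adjusted p of 0.0437, 0.0450 and 0.0494. The nearest probes outside were those of Pim3 (0.0649), Myl1, a skeletal myosin light chain gene (-0.77, 0.0665), Lgr6 (0.74, 0.0674) and Cited2. Cited2, a CBP/p300-binding inhibitor of hypoxia-inducible transcription, read 10.24, 10.50 and 10.21 in KO AngII, against 9.53, 9.62 and 9.54 in WT AngII. Its difference of 0.75 ± 0.14 missed the threshold (adjusted p = 0.0734), although 6 of 11 other settings called it. Its 2 dimmer probes gave 0.31 and 0.19 with overlapping arrays (adjusted p = 0.622 and 0.788).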

How the data were processed

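The authors deposited linear intensity values, not normalized. Each probe also has a detection p-value on each array, per the file headers. The deposited series values, used as an alternative, were log2 values, and gave the same counts of called probes as quantile normalization without background correction. Per the labels, RNA was cleaned on NucleoSpin columns and labelled with biotin. No label or header names the slide of an array. In the Balb/C file 313 detection cells on 11 arrays had lost their decimal point and were read as 1.

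With limma 3.58.1 (R 4.3.3), background was removed within each strain by normexp (control parameters from the detection p-values, offset of 16), and signals were quantile-normalized and taken to log2. A model with 4 group means over the 12 C57Bl/6J arrays gave all contrasts (8 residual and 5.01 prior degrees of freedom), and a joint fit of 24 arrays the strain contrast. Steps were tested on simulated data. Of 45281 probes, 34885 had 1 gene symbol, 18 several and 10378 none, and 34807 matched the GRCm38.p6 genes. The precision is limited by 3 arrays a group.

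Where a probe was detected on none of a group's 3 arrays, the fold was bounded with the lowest detected signal of each array. The 29 gene lists, the genes named and the tests were chosen with earlier results of these data known. Named genes were the 15 highest and 15 lowest called genes with 1 symbol, in each list the 3 called members of smallest p or, with none called, the 2 smallest p-values, and fixed stress, matrix and substrain genes; Pim3, Myl1 and Lgr6, Rab4b, Rab11a, Pdgfra and Anxa11 were named after their values were seen, and Gm9780 for its place beside Plac9a. Lists are described by counts and medians over the brightest probe of each gene, without a test. Alternatives were the offset, background correction, scaling, filters, 1 probe per gene, a trended prior, array weights, the replicate number as a block, the 6 AngII arrays alone, the deposited values and each array left out. A gene of the list of C57BL/6 substrain differences is not reported here.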

Additional observations from a re-analysis of the deposited data

Results flagged for a closer look

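The genotype difference under AngII differed from that in sham for 8 probes, by a limma test of the difference of genotype effects with adjusted p below 0.05. On all 8 the WT AngII arrays lay apart from the other C57Bl/6J arrays. Treatment and whatever else sets the WT AngII arrays apart cannot be told apart in this contrast. The contrast was positive for Wdfy1 (2.16) and Rab4a (1.49). It was negative for Plac9a (-2.39), Gm9780 (-1.72), Mmrn1 (-1.95), Tmem267 (-1.55), ILMN_3136638 (-5.29) and ILMN_3161601 (-3.84). Gm9780 lost this call without WT AngII replicate 2 (adjusted p = 0.0602), and Tmem267 lost it under 3 settings and without each of the 3 WT AngII arrays, KO AngII replicate 2 and 4 of the sham arrays (adjusted p up to 0.159).

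The genotype difference under AngII depended on the strain, C57Bl/6J minus Balb/C, for 18 of 119 named probes tested. Over all 17967 probes the share was 1.98%. Many of the named probes were picked by their C57Bl/6J difference, which is part of this contrast, so the shares are not alike. Wdfy1 (2.77) rose in one strain and fell in the other. Rab4a (1.05) and ILMN_1237218 (1.06) were higher in C57Bl/6J by this contrast, and Plac9a (-2.30), Gm9780 (-2.26), Mmrn1 (-1.57), Serpina3n (-1.42), Entpd4 (-0.78), Ccnk (-1.11), ILMN_3136638 (-5.31) and ILMN_3161601 (-4.16) were lower. A second probe of Wdfy1 gave 1.04, and another probe of Ift81 gave -1.33, with genotype differences of 0.34 in C57Bl/6J and 1.67 in Balb/C. Nppa (1.29), Meox1 (1.39) Col8a1 (1.43, and 1.60 on a second probe) and a second probe of Col3a1 (2.01) had a positive difference, and in Balb/C all 4 genes were lower in TK AngII than in WT AngII. The calls of ILMN_1237218, Serpina3n, Nppa, Meox1 and the first Col8a1 probe were lost without 7, 8, 5, 9 and 8 of the 12 AngII arrays in turn, with adjusted p up to 0.0876, 0.0948, 0.0948, 0.121 and 0.142. Those of the second Col8a1 probe and of Ift81 were lost without 3 and 8 of them (up to 0.0777 and 0.126). Strain, allele label and file cannot be told apart here.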

How the results depend on the processing

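The 22 called probes became 49 with an offset of 50 (17 higher, 32 lower), 46 without background correction and with the deposited values (13 higher, 33 lower), 61 with a trended prior (24 higher, 37 lower), 35 with array weights and 9 with the 6 AngII arrays alone. With the replicate number as a block the count was 16. Deviations of same-numbered KO AngII and WT AngII arrays correlated at 0.099, -0.027 and 0.18, and 3 of the 6 arrays correlated best with their own number. So few arrays cannot decide whether the numbers pair them. Without single arrays the count ranged from 6 to 25. The difference of effects between AngII and sham, 8 probes, became 21 with an offset of 50 and 20 without background correction, with a trended prior and with the deposited values, and 3 to 10 without single arrays; the block left it at 8. The strain contrast, 356 probes, became 566 with an offset of 50 and 314 with the block. Without single arrays it ranged from 119 to 827: 188 without WT AngII C57Bl/6J replicate 3, 184 and 217 without KO AngII replicates 2 and 3, 827, 119 and 208 without WT AngII Balb/C replicates 1, 2 and 3, and 144 and 583 without TK AngII replicates 1 and 3. The cause was not tested.

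Of the list medians, that of the substrain genes (-0.78) moved to -0.65 with an offset of 50 and -0.53 without background correction and with the deposited values, and TGF-beta genes (-0.099) to -0.055 under the last pair. Endosome genes (0.11) moved to 0.049 without background correction. With scaling to a common median, medians were 0.17 for endosome genes, 0.18 around Bmx, -0.008 for TGF-beta, 0.15 for hypoxia, 0.23 for fatty acid oxidation, 0.13 for oxidative phosphorylation, 0.027 for endothelial, 0.021 for arterial and 0.12 for smooth muscle genes. Without single arrays the ranges were 0.042 to 0.18 for endosome, -0.017 to 0.068 for hypoxia, 0.048 to 0.071 for oxidative phosphorylation, -0.31 to 0.033 for cell cycle, -0.035 to 0.31 for lymphocyte, -0.048 to 0.081 for vascular growth factor, -0.13 to -0.036 for endothelial, -0.085 to 0.068 for smooth muscle, -0.14 to 0 for TGF-beta and -0.001 to 0.031 for ventricular genes. Signs turned for Myh6 (-0.007) with a common median, and without single arrays for Pam (-0.016 to 0.60), Nppa (-0.011 to 0.29), Myh7 (-0.14 to 0.54) and Col3a1 (-0.098 to 0.43), the last also at -0.060 without WT AngII replicate 3, and Myh7 at -0.072 without KO AngII replicate 1. List medians were not recomputed with the trended prior, the stricter filter, 1 probe per gene or the 6 AngII arrays alone. Dim probes, near the detection limit, are measured least well.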
